A study of Mus musculus with 6 samples.

Results

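The transcription factor p53 (gene Trp53) and 9 genes that it is known to activate were followed in mouse embryonic stem cells (mESCs) with and without huntingtin. These 10 genes were looked up by symbol among the 23412 genes of the deposited table, and all 10 were present: Trp53, Mdm2, Cdkn1a, Ccng1, Sesn2, Phlda3, Trp53inp1, Perp, Zmat3 and Aen. R1 mESCs are the parental wild type line. HN (Htt-null) mESCs are Htt-/- cells that lack the Htt promoter and exon 1, and both lines are of strain 129Sv. Both were kept undifferentiated without feeder cells on gelatin, in serum medium with leukemia inhibitory factor and the inhibitors SU5402, PD184352 and CHIR99021, so no group was treated with a DNA-damaging agent according to the study's methods. Each genotype is represented by 1 cell line, so an effect of the genotype and any other difference between the lines cannot be told apart.

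Total RNA was isolated, and its mRNA was sequenced in 3 libraries per line. The labels give 3 collection dates, each with 1 library of each line. The second date is 3 days and the third 13 days after the first. The labels do not say whether a line's libraries came from separate cultures, so their spread is that between these collections. In fits without the date, p-values are measured against that spread. In fits with a term for the date, p-values are measured against the spread left after the date is taken out. The 6 libraries held 1640391 to 3866717 reads in genes. Members held between 26 reads (Cdkn1a in the R1 library of the third date) and 3779 reads in a library, so the low members carry the larger counting error. Htt had 230, 257 and 199 normalized counts in R1 and 18.3, 58.1 and 54.2 in HN, in the direction of the labels. The 7 embryonic stem cell markers examined (Pou5f1, Sox2, Nanog, Klf4, Esrrb, Zfp42 and Dppa5a) summed to between 9338 and 13653 normalized counts in all 6 libraries, and fibroblast markers to between 12.1 and 99.7.

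In unstressed cells p53 is made continuously and degraded, because the ubiquitin ligase Mdm2 binds it, and Mdm2 is itself a p53 target, which closes a feedback loop. DNA damage and other stresses break that contact, and the p53 protein then accumulates and activates genes for cell cycle arrest, repair, metabolism and death. Regulation of p53 is thus largely at the protein level, which RNA does not show, and a target's RNA also depends on other regulators. Embryonic stem cells are known for a high p53 level and for a weak arrest in G1 after damage.

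The genomic context of the members bears on which of them hold p53-type sequence next to their start. Promoter windows from RefSeq on GRCm38.p6, running from 250 bases before to 50 after a start, were found for 7 of the 10 genes in 9 windows. Trp53inp1, Perp and Zmat3 had no entry. The windows were searched for the p53 decamer, a 10-base element that reads the same on both strands, and for the 20-base p53 consensus made of a pair of abutting decamers. An exact decamer occurred in 5 of the 7 genes (Trp53, Mdm2, Cdkn1a, Ccng1 and Aen), against 8.36% of the 32851 windows searched. That share is of windows and not of genes, and some genes have more than 1 window. The targets among the members were also chosen as known targets of p53. Cdkn1a and Ccng1 each held a 20-base stretch with at most 1 mismatch to the consensus, a match found in 0.0883% of all windows. Trp53 and Aen came to 3 mismatches, as did 6.29% of windows at that limit or better. The best stretch of each of the 5 genes is shown with its 20 bases in capitals, 5′ to 3′ on the strand of the gene, because these are the members whose windows hold a decamer.
Cdkn1a: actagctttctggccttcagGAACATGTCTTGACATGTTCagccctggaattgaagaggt
Ccng1: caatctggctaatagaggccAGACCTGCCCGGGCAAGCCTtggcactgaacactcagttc
Trp53: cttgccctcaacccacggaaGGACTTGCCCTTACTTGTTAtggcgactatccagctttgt
Aen: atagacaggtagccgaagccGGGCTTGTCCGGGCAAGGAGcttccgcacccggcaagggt
Mdm2: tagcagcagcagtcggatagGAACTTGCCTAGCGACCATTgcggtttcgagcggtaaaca

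The printed stretches lie at chr17:29090908-29090967 (plus strand, Cdkn1a), chr11:40755442-40755501 (minus strand, Ccng1), chr11:69580264-69580323 (plus strand, Trp53), chr7:78895917-78895976 (plus strand, Aen) and chr10:117710905-117710964 (minus strand, Mdm2). The capitals begin 51 bases before 1 annotated start of Cdkn1a, 195 before that of Ccng1, 75 before that of Trp53 and 186 before that of Mdm2. In Aen they begin 121 bases before one of its annotated starts and lie inside the transcript from another. The Mdm2 stretch holds an exact decamer in its first 10 capitals but has 5 mismatches to the whole consensus. The windows of Sesn2 and Phlda3 held no exact decamer. Nor did the window of another Cdkn1a start (chr17:29093519-29093818), where the best stretch had 5 mismatches. A match is a description of these letters, and p53 binding was not measured here.

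Levels of different genes were compared per kilobase (kb) of annotated exon (GRCm38, GENCODE M21). Cyclin G1 (Ccng1), a target whose protein acts with protein phosphatase 2A, was highest per kb at 538 ± 93.1 normalized counts per kb in R1 and 674 ± 82.1 in HN (SD, n = 3). Trp53 itself followed, at 213 ± 47.3 in R1 and 257 ± 69.5 in HN, and was next to Trp53inp1 at 189 ± 60.3 and 242 ± 35.5. The lowest were Cdkn1a, at 17.4 ± 6.89 and 24.2 ± 3.54, and Zmat3, at 17.0 ± 5.56 and 21.9 ± 10.2. The remaining 5 genes lay between these, from 40.7 for Sesn2 to 73.6 for Phlda3 in R1 and from 39.1 for Aen to 94.2 for Phlda3 in HN. In this order the libraries of Ccng1 did not overlap those of Trp53 in either line, and those of Trp53inp1 did not overlap those of Phlda3. Neighbours from Phlda3 to Sesn2 overlapped in their library values, as did Trp53 with Trp53inp1 and Cdkn1a with Zmat3. Cdkn1a did not overlap the gene above it, Sesn2 in R1 and Aen in HN.

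**Figure D1:**
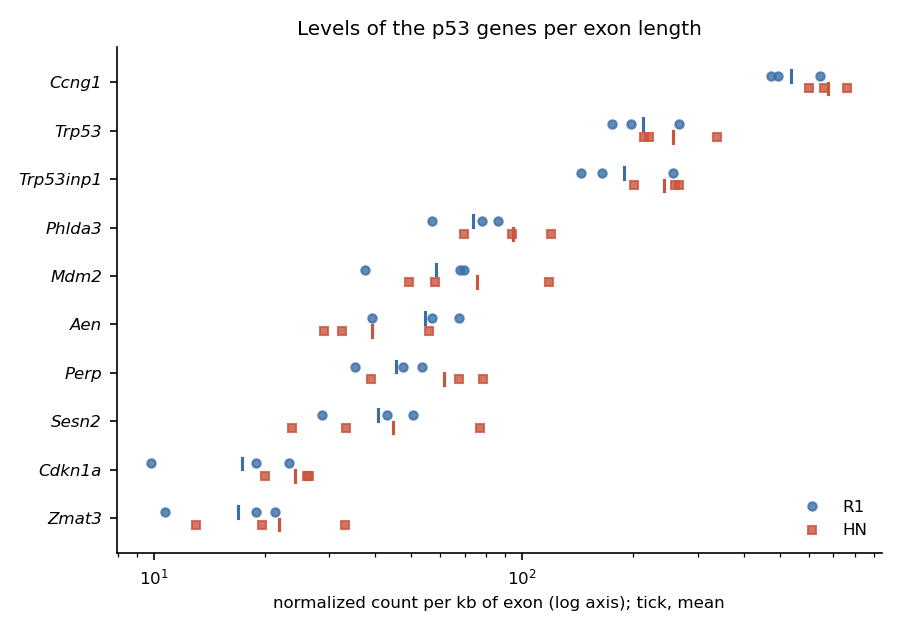
Level of the 10 p53 genes in normalized counts per kb of annotated exon, on a log axis, with 1 point per library (circles, R1; squares, HN) and a vertical tick at the mean of the 3 libraries of a line. Ccng1 lies at 474 to 763 in all 6 libraries, and Cdkn1a and Zmat3 lie at the low end, between 9.86 and 33.0.

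The comparison of the lines asks whether RNA of p53 and its targets differs between cells with and without huntingtin. Of the 10 genes, 8 had a positive log2 fold change (HN minus R1), against 48.5% of all genes tested, Aen stood at -0.51 and Sesn2 at -0.01. The libraries of the 2 lines overlapped for every member, and 10.8% of all genes had none that overlapped. No member passed an adjusted p of 0.05 in limma, where 0.245% of the 14276 genes tested passed in either direction, and no member had an unadjusted p under 0.05, against 5.91% of all genes. Without the date, no member passed in edgeR or DESeq2 either, where 0.238% and 0.785% of genes passed. Because both lines were collected on the same dates, the lines were also compared within dates, with the replicate number as a block. In limma that fit takes most of its spread from other genes, so its SE does not measure how far a gene's own pairs differ. With this block 3 members passed as higher in HN (Cdkn1a, Ccng1 and Trp53inp1) and 1 as lower (Aen), against a background of 5.46% of genes higher and 4.02% lower. Among genes with a mean of at least 50 normalized counts, which all members reached, 14% passed in either direction. In edgeR with the block 7 of the 10 passed, where 11.2% of genes did, and in DESeq2 with the block 2 passed, where 3.59% of genes did. The median of the log2 fold change was 0.33 over the members and -0.01 over all genes tested. In bulk RNA, fewer cells with a transcript and less of it per cell cannot be told apart.

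**Figure D2:**
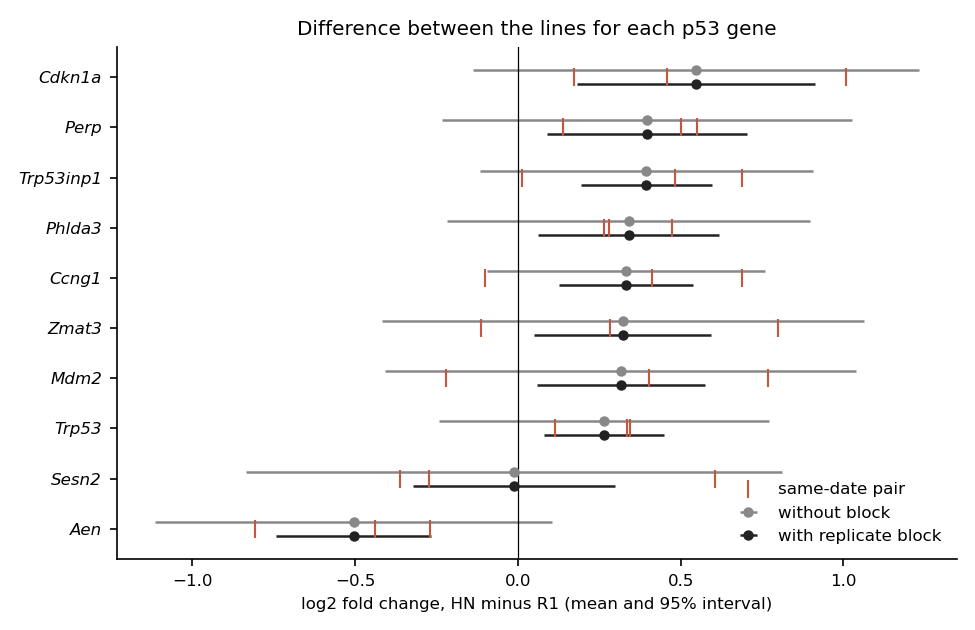
Log2 fold change of HN over R1 for the 10 genes, with 95% intervals from limma without the block (grey) and with the replicate block (black) and the differences of the 3 same-date pairs as vertical bars. The intervals are not adjusted for the number of genes. The grey intervals all cross 0; Aen lies lowest at -0.51 and Cdkn1a highest at 0.55.

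Trp53, on chromosome 11 (GRCm38 chr11:69580359-69591873, plus strand), stood at 801, 1076 and 708 normalized counts in the R1 libraries of the first, the second and the third date. In HN it stood at 866, 1366 and 892. HN was the higher of each same-date pair, by 0.11, 0.34 and 0.33 on the log2 scale, while the second R1 library lay above the first and the third HN library. The log2 fold change was 0.26 (SE 0.23, 95% interval -0.24 to 0.77, limma adjusted p = 1). It was 0.053 without the HN library of the second date. Within dates it missed the threshold (SE 0.09, limma adjusted p = 0.0604), and edgeR with the block put it at an adjusted p of 0.0389. Of the 50-base stretches of Trp53 transcripts, 3.95% also occur in other annotated transcripts, among them its pseudogene, so a small part of its reads may have been counted elsewhere or not at all.

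Mdm2, the ligase that restrains p53 (chr10:117688875-117710758, minus strand), had 345, 353 and 190.0 normalized counts in R1 and 296, 602 and 251 in HN. HN was lower on the first date by 0.22 and higher on the others by 0.77 and 0.40, so the pairs did not share a direction. Between the lines it differed by a log2 fold change of 0.32 (SE 0.33, 95% interval -0.41 to 1.04, limma adjusted p = 1). With the block the SE was 0.13 and the limma adjusted p 0.12, and edgeR with the block put it at an adjusted p of 0.0369. Without the HN library of the second date the log2 fold change was -0.064. Relative to Trp53, Mdm2 stood at 0.431, 0.328 and 0.269 in R1 and at 0.341, 0.441 and 0.282 in HN, as a ratio of their normalized counts, and the lines overlapped in this ratio too.

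The arrest targets were Cdkn1a and Ccng1. Cdkn1a encodes p21, the inhibitor of cyclin-dependent kinases through which p53 halts the cell cycle (chr17:29090976-29100727, plus strand). Its normalized counts were 83.0, 67.3 and 35.0 in R1 and 93.7, 92.9 and 71.5 in HN. HN was higher on every date, by 0.17, 0.46 and 1.01 in log2, and only the third HN library fell among the R1 values. The log2 fold change was 0.55 (SE 0.31, 95% interval -0.14 to 1.23, limma adjusted p = 1), and it was 0.19 without the R1 library of the third date. It passed narrowly within dates (SE 0.18, limma adjusted p = 0.0487). That call rests on few reads and on the choice of tool: it was lost in edgeR with the block (adjusted p = 0.0505), in DESeq2 with the block (0.403) and in limma without the third date (0.334). In addition, 273 exonic bases of Cdkn1a overlap an annotated antisense gene that has no entry in the table, and the library kit does not mark strand, so reads from the 2 genes cannot be told apart there. Of the 50-base stretches of Cdkn1a transcripts, 8.49% also occur in other annotated transcripts on either strand, that antisense gene included. This was the largest such share among the members.

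Ccng1 (chr11:40748552-40755311, minus strand) was the most abundant member, with 2264, 1663 and 1741 normalized counts in R1 and 2109, 2679 and 2319 in HN. HN was slightly lower on the first date (-0.10 in log2) and higher on the others (0.69 and 0.41). For the lines as a whole the log2 fold change was 0.33 (SE 0.20, 95% interval -0.09 to 0.76, limma adjusted p = 1), and it passed within dates (SE 0.10, limma adjusted p = 0.0306), although 1 of 3 pairs went the other way. With the block edgeR passed it (adjusted p = 0.00747) and DESeq2 did not (adjusted p = 0.567). Both genes carry the near-complete p53 consensus shown above, and their values across libraries differed: Cdkn1a was lowest on the third date in both lines, while Ccng1 was lowest on the second date in R1 and on the first in HN.

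Among the targets linked to cell death, Aen and Trp53inp1 were the members that passed with the block in every tool run, in opposite directions. Aen, a nuclease that promotes apoptosis (chr7:78895854-78911209, plus strand), had 331, 391 and 228 normalized counts in R1 and 189, 325 and 168 in HN. It was lower in HN on each date, by 0.81, 0.27 and 0.44 in log2, although the HN library of the second date lay above the third R1 library. The log2 fold change was -0.51 (SE 0.28, 95% interval -1.12 to 0.11, limma adjusted p = 1), and Aen passed as lower within dates (SE 0.12, limma adjusted p = 0.00363). With the block the adjusted p was 0.00182 in edgeR and 0.0466 in DESeq2.

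Trp53inp1, a p53-induced nuclear protein that strengthens p53 activity under stress (chr4:11156431-11174379, plus strand), stood at 1667, 1069 and 934 normalized counts in R1 and at 1680.3, 1722 and 1305 in HN. The lines were level on the first date (0.01 in log2) and HN was higher by 0.69 and 0.48 on the others. The log2 fold change was 0.39 (SE 0.23, 95% interval -0.12 to 0.91, limma adjusted p = 1), and it passed as higher within dates (SE 0.10, limma adjusted p = 0.00728). With the block it also passed in edgeR (adjusted p = 0.00141) and DESeq2 (adjusted p = 0.0263).

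Perp and Phlda3, also death-linked targets, were higher in HN on every date and did not pass in limma with or without the block. Perp, a tetraspan membrane protein (chr10:18845020-18857073, plus strand), had 92.6, 104 and 68.7 normalized counts in R1 and 131, 153 and 75.8 in HN. Its log2 fold change was 0.40 (SE 0.29; with the block SE 0.15, limma adjusted p = 0.0977, edgeR adjusted p = 0.0384), and the third HN library lay among the R1 values. Phlda3, a pleckstrin homology protein that restrains Akt (chr1:135766119-135769136, plus strand), had 121, 134 and 89.0 in R1 and 146, 186 and 108 in HN. Its log2 fold change was 0.34 (SE 0.25; with the block SE 0.14, limma adjusted p = 0.122).

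The last pair of members acts in metabolism and on RNA. Sesn2, a sestrin that lowers mTORC1 activity (chr4:132492032-132510501, minus strand), had 149, 175 and 99.7 normalized counts in R1 and 116, 267 and 82.3 in HN. The dates gave opposite directions (-0.36, 0.61 and -0.27 in log2), and the log2 fold change of -0.01 changed sign with the processing (SE 0.38, 95% interval -0.83 to 0.81; with the block -0.32 to 0.30). Zmat3, an RNA-binding zinc finger protein (chr3:32334792-32366014, minus strand), had 244, 217 and 123 in R1 and 225, 378 and 149 in HN. Its log2 fold change was 0.32 (SE 0.34), and it was -0.024 without the HN library of the second date. With the block the SE was 0.13, the limma adjusted p 0.136 and the edgeR adjusted p 0.0418.

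The blocked calls depend on which dates enter. Without the third date 3 members were called higher (Ccng1, Trp53inp1 and Perp) and 1 lower (Aen), where 11.8% of all genes passed in either direction. Without the first date 6 were called higher (Trp53, Mdm2, Cdkn1a, Ccng1, Trp53inp1 and Zmat3) and none lower, where 7.89% of genes passed, with Aen at a limma adjusted p of 0.0807. Without the second date no member was called higher, and Aen was the only call (limma adjusted p = 0.0164), where 3.46% of genes passed, fewer than the 9.48% with all dates. The higher calls of Ccng1 (0.778), Trp53inp1 (0.521) and Cdkn1a (0.237) were all lost in that last fit. HN was higher in all 3 pairs for 5 members, where 20.3% of all genes and 27.3% of genes with a mean of at least 50 were, and Aen was the 1 member lower in all 3, as were 21.1% of all genes. Each date holds 1 library of each line, so no p-value is given for a change of the line difference with date. The line difference on the second date, minus that on the other dates, ranged from -0.13 (Cdkn1a) to 0.92 (Sesn2) in log2 over the members. Markers of cell identity also differed between the lines within dates. None passed in limma without the block. With it 5 of the 7 stem cell markers passed, with Nanog, Klf4, Esrrb and Dppa5a higher in HN (log2 fold changes 0.28, 0.52, 0.37 and 0.27) and Zfp42 lower (-0.79). Of the 5 mesoderm markers T and Eomes passed as higher (1.21 and 0.96), and the list summed to 79.8, 169 and 93.0 normalized counts in R1 and 206, 262 and 156 in HN, most of it from Eomes in the first and the second date's libraries. Among the 5 neural markers Tubb3 passed as lower (-0.76), while Nes stood at 0.53 without passing, and of the 6 fibroblast markers Thy1 passed as lower (-1.54). No primitive endoderm marker passed. Their part in the line differences was not tested.

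Most members varied more between collection dates than between the lines. For 9 of the 10 genes the date held a larger share of the variance of the log2 values than the line did, as it did for most genes of the table (81.3%). The shares are not corrected for the date having more levels than the line. Sesn2 was the extreme, with 84.5% of its variance between dates and 0.0096% between lines. Ccng1 was the exception, with 48.6% between lines and 4.31% between dates. Within a line, the highest library stood 3.25-fold over the lowest for Sesn2 in HN, 2.53-fold for Zmat3 in HN, 2.40-fold for Mdm2 in HN and 2.37-fold for Cdkn1a in R1, against 1.36-fold and 1.27-fold for Ccng1 in R1 and HN.

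On the third date, 9 of the 10 members were lower than on the first and second (limma with line and date, replicate 3 against the mean of replicates 1 and 2), where 23.2% of all genes and 39.6% of genes with a mean of at least 50 passed as lower. The median difference was -0.65 in log2 over the members, -0.07 over all genes tested and -0.26 over genes with a mean of at least 50. Zmat3 fell by 0.93 (SE 0.14, limma adjusted p = 7.97e-06), by 0.90 in R1 and 0.96 in HN. Sesn2 fell by 0.89 (limma adjusted p = 8.92e-05) and Mdm2 by 0.81 (limma adjusted p = 2.79e-05). These were the members with the largest difference, and each was lowest on the third date in both lines.

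Cdkn1a fell by 0.73 (limma adjusted p = 0.00333), with a larger value in R1 (-1.07) than in HN (-0.38), from 1 library of each line on that date. Perp fell by 0.70 and Aen by 0.61, and Phlda3, Trp53inp1 and Trp53 by 0.56, 0.45 and 0.34 (limma adjusted p between 3.37e-04 and 0.00632). Aen, the member that was lower in HN, was thus lower on the third date in both lines like the members that were higher in HN. Ccng1 differed by -0.10 and did not pass (limma adjusted p = 0.491). The third date was the lowest in both lines for 8 of the 10 members, against 29.5% of all genes and 46.6% of genes with a mean of at least 50, and the second date was the highest in both for 6, against 27.1% and 42.9%.

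The number of calls on date depended on the method. It was 5 with DESeq2, where 7.9% of all genes passed as lower, and 5 after quantile normalization, where 13.1% did. After median centring, which moved the median of all genes from -0.07 to 0.06, it was 8, where 13.8% of genes passed as lower and 22.6% as higher, against 23.2% and 17.8% before. Without a line term it was 3, where 9.04% of genes passed as lower, and in limma without the variance trend 0, where 2.87% did. In that last fit 7 members had an unadjusted p under 0.05, as had 39% of all genes. Several values of the libraries moved with the third date as well. The sum of all normalized counts was 2583110, 2666420 and 2210990 in R1 and 2528960, 2740810 and 2352310 in HN, and the number of genes with a read was 18133, 19083 and 20675 in R1 and 18986, 18478 and 20542 in HN. The 5 primitive endoderm markers summed to 43.6, 30.3 and 151 normalized counts in R1 and 59.6, 34.0 and 128 in HN, and the 7 stem cell markers to 13469, 12916 and 9338 and to 13653, 13158 and 10340. The 6 fibroblast markers summed to 53.2, 38.5 and 99.7 in R1 and to 38.9, 12.1 and 65.0 in HN. Their part in the date differences was not tested.

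**Figure D3:**
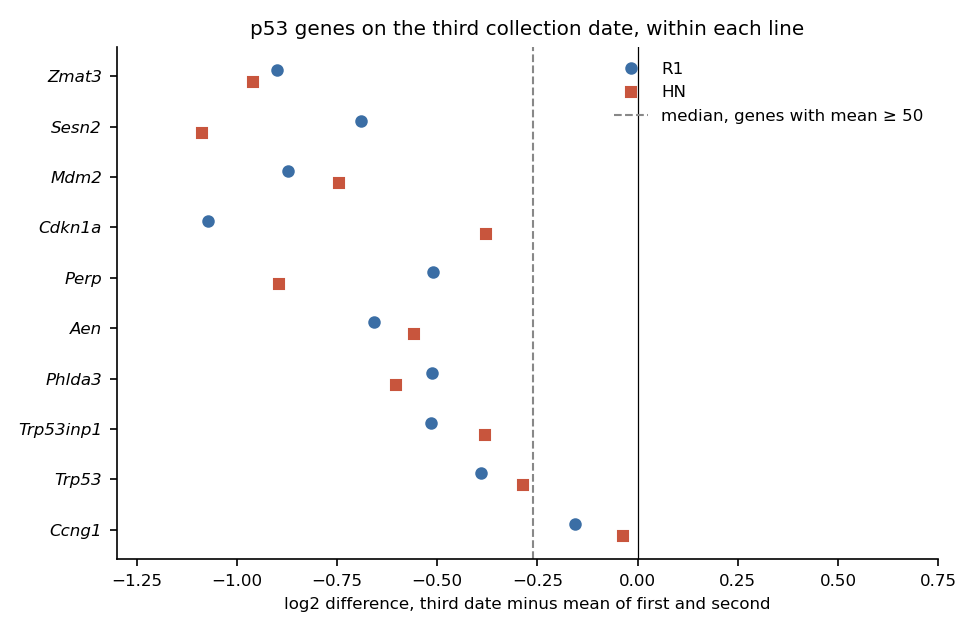
Log2 difference between the third date and the mean of the first and second, within R1 (circles) and within HN (squares), for each of the 10 genes. The dashed line is the median of genes with a mean of at least 50 (-0.26); Zmat3 is the lowest averaged over both lines (-0.90 in R1, -0.96 in HN), the lowest single points are Cdkn1a in R1 (-1.07) and Sesn2 in HN (-1.09), and Ccng1 lies nearest to 0.

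The members varied together to different degrees across the 6 libraries. The highest correlations of log2 values were between Perp and Phlda3 (Pearson r = 0.975) and between Mdm2 and Zmat3 (r = 0.971), and the lowest was between Ccng1 and Aen (r = -0.139). Aen had the lowest median correlation with the other members (r = 0.385) and Mdm2 the highest (r = 0.846). These values include the difference between the lines, in which Aen went the other way from most members. Computed within lines, the correlations of Aen ranged from 0.427 with Ccng1 to 0.986 with Mdm2, with 0.945 for Trp53. The libraries share dates and depth, so these values are a description. Outside the members, among 7658 genes with a mean of at least 50, the patterns most like Trp53 were those of Pgd (r = 0.9975), Son (0.9948) and Tns3 (0.9943), and 196 genes exceeded 0.95. The patterns most like Cdkn1a were those of Scnm1 (0.9941), Uba1 (0.9936) and Nid2 (0.9906), with 93 genes over 0.95, so a close likeness over 6 libraries was common in this table.

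The wider pathway was examined with 56 listed regulators and targets of p53, of which 54 had an entry and 51 passed the filter on low values. None passed in limma without the block, where 3 had an unadjusted p under 0.05, against 5.91% of all genes. None passed in edgeR, while DESeq2 passed Pmaip1. With the block 6 were higher in HN (Mdm4, Pmaip1, Tnfrsf10b, Polh, Pank1 and Dcxr) and 1 lower (Gadd45a), which is 7 of 51 against a background of 9.48% of genes in either direction. Among genes with a mean of at least 50, a level that not all of the 51 reached, 14% passed with the block. The median log2 fold change over the 51 genes was 0.05. The gene Pidd1 and the noncoding RNA Trp53cor1 were not analysed here, and Trp63, Fas and Sco2 had too few counts.

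Pmaip1 encodes Noxa, a BH3-only protein that promotes apoptosis, and had the largest difference of the list. It stood at 143, 88.8 and 66.0 normalized counts in R1 and at 496, 238 and 154 in HN, above every R1 library. HN was higher in each pair, by 1.79, 1.41 and 1.21 in log2, and both lines were highest on the first date. Its log2 fold change was 1.47 (SE 0.39, limma adjusted p = 0.333; with the block SE 0.13, adjusted p = 4.78e-10). DESeq2 passed it without the block (adjusted p = 0.0125) and with it (5.34e-12).

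Polh, a DNA polymerase that copies past ultraviolet damage, had 72.4, 68.8 and 47.2 normalized counts in R1 and 103, 120 and 107 in HN, again without overlap. Its log2 fold change was 0.82 (SE 0.24, limma adjusted p = 0.433; with the block 7.94e-04). Gadd45a, a growth arrest gene, went the other way, with 83.0, 85.8 and 64.7 in R1 and 45.0, 58.8 and 40.1 in HN, and a log2 fold change of -0.69 (SE 0.25, limma adjusted p = 0.651; with the block 0.0105). Lines that do not overlap were found for 10.8% of all genes tested.

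Mdm4, the partner of Mdm2 in restraining p53, had 287, 284 and 266 normalized counts in R1 and 361, 413 and 298 in HN (log2 fold change 0.34, with the block limma adjusted p = 0.0396). Tnfrsf10b, a death receptor, differed by 0.54 (with the block limma adjusted p = 0.0285), Pank1, a pantothenate kinase of coenzyme A synthesis, by 0.56 (0.046) and Dcxr, a carbonyl reductase, by 0.59 (0.0449). The call of Dcxr was lost in edgeR with the block (adjusted p = 0.0687), and in DESeq2 with the block those of Mdm4 (adjusted p = 0.201), Tnfrsf10b (0.286), Pank1 (0.327), Dcxr (0.408) and Gadd45a (0.183) were lost. The genes with the most reads in each role did not pass: Usp7 (log2 fold change 0.05), Gtse1 (-0.01), Bax (-0.01), Polk (0.25), Gpx1 (0.20) and Psrc1 (0.23). The proapoptotic genes thus differed among themselves, since Bax had 375, 440.2 and 191 normalized counts in R1 and 305, 436 and 234 in HN.

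**Figure D4:**
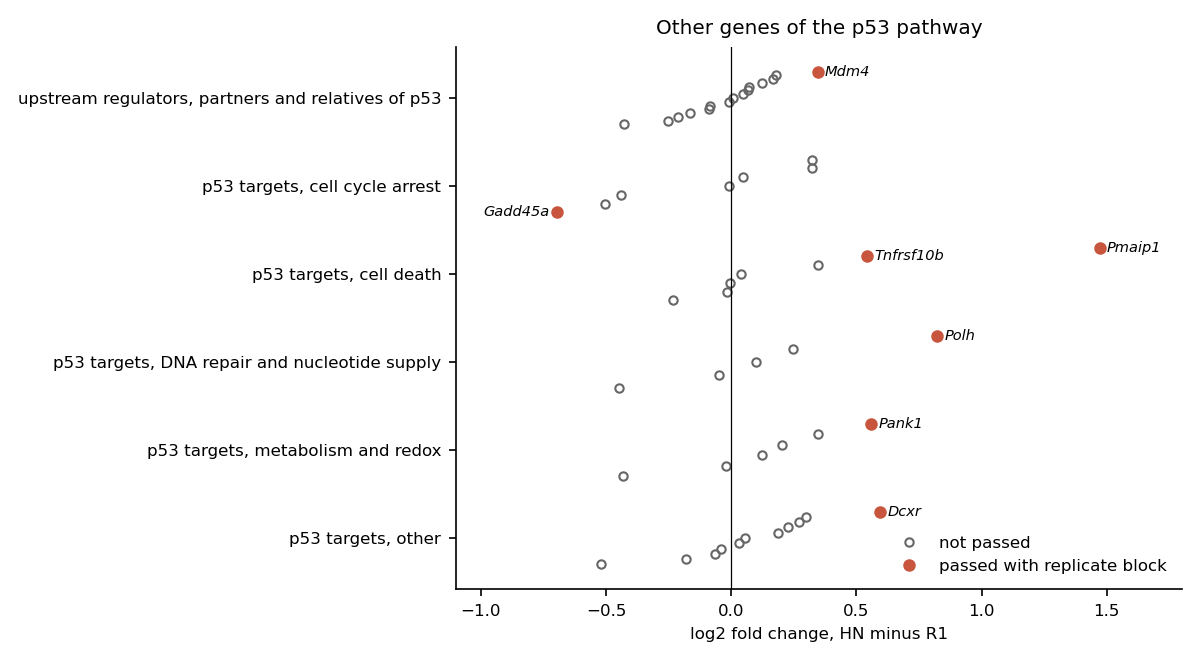
Log2 fold change of HN over R1 for the 51 further p53 pathway genes tested, grouped by role, with filled points for those that passed within dates in limma and open points for the rest. Pmaip1 lies farthest to the right at 1.47 and Gadd45a at the left at -0.69.

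Of the 36 other p53 targets tested, 20 passed as lower on the third date and 2 as higher, and 23 were lowest on that date in both lines. Among cell death targets 6 of 7 passed as lower, and among arrest targets 5 of 7. Of the 15 upstream regulators, partners and relatives, 2 passed as lower and 2 as higher, and 4 were lowest on the third date in both lines. These counts stand beside the same backgrounds as for the members, 23.2% lower and 29.5% lowest in both lines over all genes, and 39.6% and 46.6% over genes with a mean of at least 50.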

How the data were processed

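RNA of R1 and HN mESCs was made into libraries with a kit that does not mark strand. The authors named bcl2fastq, STAR, Picard, HTSeq, DESeq2 and mm10 in their processing notes. Picard was used to remove PCR duplicates before counting, so the reads given here are those that remained. Versions and gene annotation were not given in the sources used here. The deposited table holds a signal per gene and library, counts that the authors divided by DESeq2 size factors. Whole reads were recovered from it (100% of values within 0.001 read), giving 1640391 to 3866717 reads a library, and no sample column was unused. Precision is limited by counting in genes with few reads.

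The 10 members and the wider list were chosen with earlier results of these data known. The wider list is grouped by role; its genes are named where they passed in limma with or without the block, or had the most reads in their role. The 3 genes most like Trp53 and Cdkn1a were named by Pearson r.

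Groups follow the labels. HN was compared with R1 in limma 3.58.1 (R 4.3.3, variance trend) on log2(normalized count + 1) over the 14276 genes with a mean of at least 5, with Benjamini-Hochberg adjustment and a threshold of 0.05. Fold changes are on that scale, which understates those of low genes. Alternatives were edgeR 4.0.16 and DESeq2 1.42.0 on recovered reads, the replicate block, other scalings, pseudocounts and filters, and left-out libraries. Leaving out a whole first or second date was chosen after seeing the data. Same-numbered libraries share a collection date in the labels, so the numbers pair the samples, and the deviations of same-date libraries from their line means correlated at 0.25, 0.688 and 0.768, while those of different dates ranged from -0.708 to 0.339 (the first R1 with the second HN library). With the block, limma borrows most of its spread from other genes (2 residual degrees of freedom, 34 after moderation for Trp53). The fits were also run on counts simulated with date and line terms, which does not test them where the line difference changes with date. Annotation was GENCODE M21 (GRCm38), and promoter windows came from RefSeq.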

Additional observations from a re-analysis of the deposited data

How the results depend on the processing

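Without the block, no member passed between HN and R1 under any normalization, pseudocount, filter or left-out library run. With the replicate block the number was 4 in limma, 7 in edgeR (6 higher, 1 lower) and 2 in DESeq2, and in limma 4 without the third date, 6 without the first and 1 without the second. Of the 51 genes tested in the wider list, 7 passed in limma with the block, where 9.48% of all genes did. In edgeR with the block 9 did (11.2% of all genes). These had Plk2 and Apaf1 as higher and Xpc as lower, named after their values were seen, and lacked Dcxr. DESeq2 passed 2 with the block (3.59%) and 1 without it (0.785%). When single libraries were left out the number was 0 to 1 (1 without the third HN library, where 0.343% of all genes passed). In limma with the block 8 passed without the third date (11.8%), 8 without the first (7.89%) and 3 without the second (3.46%). The same shares stand beside the counts of members in these fits. Of 210 log2 fold changes of members over 21 alternatives, 13 changed sign, 11 of them of Sesn2: to 0.14 in edgeR, 0.11 in edgeR with the block, 0.13 in DESeq2, 0.022 in DESeq2 with the block, 0.0032 after median centring, between 0.05 and 0.35 when the first or the second R1 or the first or the third HN library was left out, and 0.12 and 0.17 with the block without the third or the first date. With 1 library left out, Mdm2 ranged from -0.064 (without the second HN library) to 0.56, Zmat3 from -0.024 (without the same library) to 0.64, and Sesn2 from -0.49 to 0.35. Of the members that kept their sign, Trp53 ranged from 0.053 (without the second HN library) to 0.44, Cdkn1a from 0.19 (without the third R1 library) to 0.80, Phlda3 from 0.15 to 0.54, Perp from 0.19 to 0.69, Trp53inp1 from 0.22 to 0.64, Ccng1 from 0.24 to 0.47 and Aen from -0.79 to -0.32. The cause was not tested.

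On the third date 9 members passed as lower (23.2% of all genes), 5 in DESeq2 (7.9%) and after quantile normalization (13.1%), 0 in limma without the variance trend (2.87%), 3 without a line term (9.04%), and 7 to 10 with 1 library left out (12.1% to 26.1%). Ccng1 on that date changed sign to 0.039 after median centring and 0.14 after quantile normalization, and ranged from -0.26 to 0.067 with 1 library left out (positive without the first R1 or the second HN library). With 3 libraries a line the exact permutation test cannot go below p = 0.1, so no such test was used. Low reads limit Cdkn1a most.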
